A study of Mus musculus with 4 samples.

Results

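Hematopoietic stem and progenitor cells are the few cells that renew all blood lineages. In mice they carry the stem cell factor receptor Kit, the sialomucin Cd34 or both, and the transcription factors Hlf, Mecom and Meis1 mark their most primitive members. They lie close to the endosteal bone surface, where stromal and endothelial cells supply Kit ligand and Cxcl12, and glucocorticoids act on them through the nuclear receptor Nr3c1, whose well known targets include Fkbp5, Tsc22d3 and the metallothioneins. In the trabecular bone libraries, 101 cell barcodes were taken as such cells, out of 8765 that passed the quality filters in trabecular bone and 23216 in the whole series. They were selected on measured values. A barcode needed at least 500 UMIs (unique molecular identifiers, the tags by which copies of the same RNA are counted once), at least 200 genes and at most 10% mitochondrial UMIs. Of Kit and Cd34 together it needed at least 2 UMIs, with the neutrophil granule genes Elane, Mpo and Prtn3 under 0.5% of its UMIs, Klf1, Gata1 and Car1 together under 3 UMIs, hemoglobin under 10%, S100a8 and S100a9 under 3%, and the collagen genes Col1a1 and Col1a2 together under 10 UMIs. The levels of these genes are therefore no finding.

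The study asked which cell types take part in the change of bone turnover under excess glucocorticoid. Trabecular bone came from male C57BL/6J mice of 20 weeks that carried under the skin a slow-release pellet of prednisolone at 6.25 mg/kg/d (GC) or a placebo pellet (control), and was collected at week 2. Bone was flushed of marrow, crushed and digested with Collagenase II, Dispase II and DNase I, and 1 single-cell library was made per condition. The number of mice behind a library is not given in the sources used here. With 1 library each, animal, library and treatment cannot be told apart, no test was run, and each interval below is an exact 95% interval that covers counting error only. The control library held 41239842 UMIs and the GC library 45876714. Between them 7 barcodes that passed the quality filters were shared, none of them among the 101 cells, although 1 GC cell shared its barcode with a callus library.

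The gate found 42 cells among 3977 in control and 59 among 4788 in GC. This is a share of 1.06% (0.762 to 1.42) in control and 1.23% (0.939 to 1.59) in GC, and the ratio of the shares was 1.17 with an interval of 0.772 to 1.78, so that a difference was not detectable at this depth. Before the upper limits were applied, 152 control and 156 GC barcodes had 2 or more UMIs of Kit and Cd34. The granule limit took out 70 and 68 of them and the limit on S100a8 and S100a9 took out 42 and 24, with some barcodes over several limits. The gated cells held more RNA than the rest, with a median of 17645 UMIs and 3993 genes in control and of 18784 UMIs and 4215 genes in GC, against 6337 and 5725.5 UMIs over all barcodes that passed the filters. The share depends on this depth. When every barcode was thinned to 2000 UMIs, 15 of 3670 control barcodes (0.409%) and 11 of 4444 GC barcodes (0.248%) passed, and the order of the libraries turned around. Both genes were detected in 20 control and 32 GC cells, Kit alone in 10 and 11, and Cd34 alone in 12 and 16.

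At the limit on Kit and Cd34, 26 cells stood just inside with exactly 2 UMIs, and 67 barcodes that met every other condition stood just outside with 1. The adhesion receptor Adgrl4 was at 23.8 CPM (UMIs of the gene per 1000000 UMIs, summed over the cells) just outside and 22.4 just inside, against 220 CPM in the 75 cells with 3 or more. For Hlf these 3 values were 3.96, 29.1 and 77.2 CPM. The cytokine receptor Flt3 went opposite ways at the limit, from 52.5 CPM outside to 39.5 just inside in control and from 11.7 to 110.4 CPM in GC.

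Not every gated cell carried the genes of a blood cell. In 8 of them, 1 from control and 7 from GC, the matrix proteoglycan gene Dcn had 36 to 235 UMIs, while it had none in the other 93. These 8 cells, called Dcn cells here, had passed on 2 to 17 UMIs of Cd34, a gene that fibroblasts also use. In their 52890 UMIs no Kit, Flt3 or Adgrl4 was seen, which allows up to 56.7 CPM of each, and the leukocyte gene Ptprc had 1 UMI. They carried 33 to 184 UMIs of Gsn and 5 to 77 of Igfbp6, Pdgfra was detected in 6 of them, and their median depth was 6254.5 UMIs. The Dcn cells thus went against the label, and results that rest most on them are given with and without them. Without them the gate held 41 of 3976 barcodes in control (1.03%) and 52 of 4781 in GC (1.09%). Among the other 93 cells, Ptprc was detected in 77, Kit in 73, Cd34 in 72 and Adgrl4 in 59. A single GC cell spent 15964 of its 33036 UMIs on the immunoglobulin gene Igkc and 4876 on Ighm, and 2 GC cells held 98 and 100 UMIs of the MHC class II gene H2-Aa. These 3 cells had Kit UMIs and no Cd34.

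Beyond the rule, most marker genes of hematopoietic stem cells were higher in the summed gated cells than in the other cells. Many single cells lacked them. Hlf was detected in 16 of 42 control and 25 of 59 GC cells, and Mecom in 9 and 15. Of the 5 markers given for the cells, Kit and Cd34 were fixed by the rule, while Flt3, Adgrl4 and Cdk6 were not. Cdk6 was at 618 CPM in control and 580.1 CPM in GC against 72.7 and 70.3 CPM in the other cells of the same libraries, and Flt3 was at 84.2 and 93.3 CPM against 4.80 and 6.26 CPM. Of 16 stem cell markers, 15 were higher in the gated cells in both libraries, 9 of them at least 2-fold. These 2 counts stand without a share over all genes, so little is read from them. Of the 7 markers with at least 100 UMIs in the gated cells, 6 were at least 2-fold higher in both, against 24.5% of all 3015 such genes. A gene that is rare elsewhere reaches this limit only through the gated cells. The limit thus favored such counts, and little is read from this one either. Slamf1 was at 0 in control, which allows up to 3.61 CPM, and the most abundant marker, Ifitm1, was not specific, with 582 CPM in gated and 561 CPM in other control cells. After thinning to 2000 UMIs, Adgrl4 was detected in 26.2% of control and 28.8% of GC gated cells, and in 0.390% and 0.0982% of the neutrophil-type barcodes with S100a8 and S100a9 at 3% or more, whose median depths were 6190 and 5354 UMIs. Angpt1, a ligand that stem cells make themselves, was detected in 14.3% and 25.4% of the thinned gated cells and in 0% (0 of 2562) and 0.131% of those barcodes. The granulocyte list summed to 4742 and 4802 CPM in the gated cells, with S100a8 the most abundant gene and no member at 0, and its level was capped by the rule. Lists of several other lineages were higher than in the other cells, among them the megakaryocyte list at 423 and 276 CPM against 56.9 and 16.2 CPM and the endothelial list at 214 and 256 CPM against 29.98 and 39.5 CPM. Of the 11 endothelial markers 7 were higher than in the other cells in both libraries, a count that again stands without a share over all genes. The most abundant was Egfl7, at 81.8 CPM in control and 133 CPM in GC. Cdh5, which defines endothelium, was at 0 in both libraries, and its fellow markers Kdr and Flt1 had 1 UMI each over all 101 cells.

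Over all genes with at least 100 UMIs in the gated cells, 739 of 3015 (24.5%) were at least 2-fold higher than in the other cells in both libraries, so this by itself says little of a gene. Most of the other barcodes were rich in hemoglobin or in S100a8 and S100a9, and when these were left out of the comparison the count was 97. The gate was drawn on the same cells, so these values are a description. The 15 genes that stood furthest above the other cells, by the lower of the libraries and leaving out the genes of the rule, were led by Ctla2a, a cysteine protease inhibitor, at 877 CPM in control and 1628 CPM in GC against 28.6 and 51.6 CPM in other cells. Myct1, a membrane protein of endothelial and stem cells, followed with 135 and 156 CPM against 1.87 and 2.00 CPM. Adgrl4 came next with 141 and 200.2 CPM against 4.02 and 3.79 CPM.

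The others were Adgrg1 (the adhesion receptor GPR56), Angpt1, Ctla2b, the lymphoid DNA polymerase gene Dntt, the mucin Muc13, Pcolce2, Hlf, Tsc22d1, Flt3, Meis1, Myoc and Nrgn. Meis1, a homeobox partner of the Hox factors, was at 58.9 CPM in control and 88.1 in GC, against 2.44 and 1.74 CPM in other cells. Pcolce2 and Myoc belonged to the Dcn cells, and Myoc was seen in 1 control and 3 GC cells. Ctla2a and Ctla2b are near-identical copies, and how reads were divided between them is uncertain. Dntt was detected in 7 control and 9 GC cells only, while Adgrg1 was detected in 31 and 44.

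**Figure D1:**
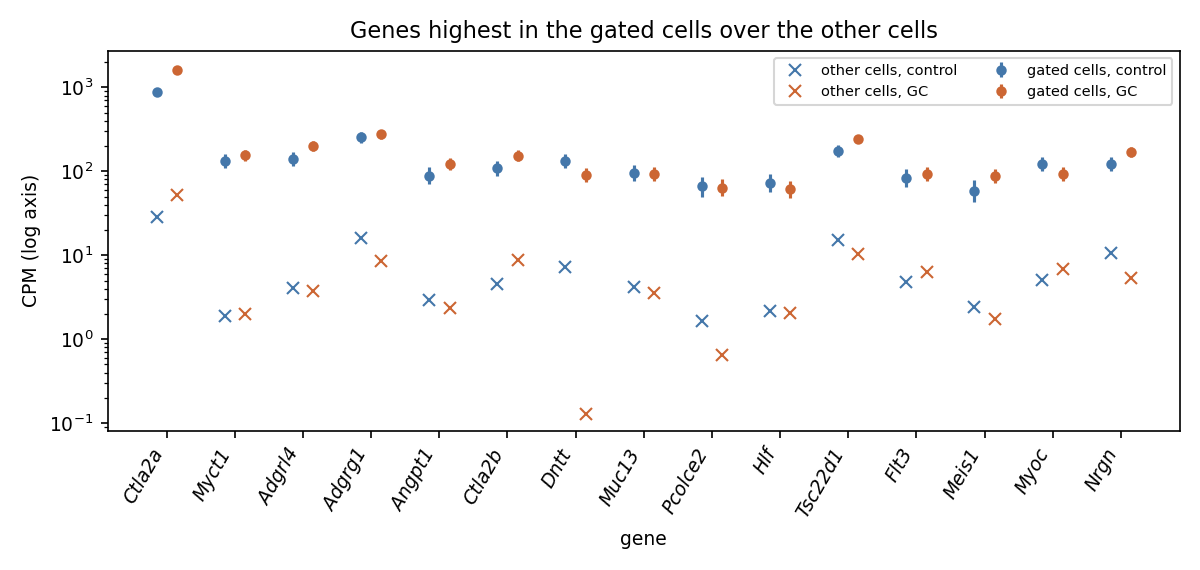
The 15 genes furthest above the other cells, with the level in CPM on a log axis by gene; filled points with bars are the gated cells (exact 95% Poisson intervals) and crosses the other cells that passed the filters, in blue for control and orange for GC. Ctla2a stood highest at 877 CPM in control and 1628 CPM in GC, and for all 15 genes both gated levels lay above both crosses.

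The sequences before the start sites of the leading genes were read from RefSeq on GRCm38.p6, and 14 of the 15 genes were matched (Angpt1 was not). The 250 bases upstream of each annotated start were searched on both strands for the letters that GATA factors (AGATAA), ETS factors (CAGGAAG) and RUNX factors (TGTGGTT) are known to bind. The GATA letters stood before a start of 3 genes, Ctla2a, Dntt and Myct1, and before 11.4% of the 27025 genes searched. The genes searched did not cover every chromosome. The ETS letters stood before Ctla2a and Ctla2b, against 12.1% of the genes searched, and the RUNX letters before Tsc22d1, against 5.08%. Each of the stretches printed holds 1 match, so no matches overlap there. A match is a description of letters, and occupancy was not measured. The stretches of Ctla2a (chr13:60936626-60936875, minus strand) and Myct1 (chr10:5593478-5593727, plus strand) are shown since these genes stood furthest above the other cells. The GATA letters, or their reverse complement TTATCT, are in capitals. Another annotated start of Ctla2a, further downstream, has the ETS letters and not the GATA letters in its window.
Ctla2a: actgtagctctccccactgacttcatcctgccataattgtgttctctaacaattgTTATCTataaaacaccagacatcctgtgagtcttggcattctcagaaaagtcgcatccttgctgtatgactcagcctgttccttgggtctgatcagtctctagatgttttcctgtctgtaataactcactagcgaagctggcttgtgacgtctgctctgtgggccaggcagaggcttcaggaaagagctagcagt
Myct1: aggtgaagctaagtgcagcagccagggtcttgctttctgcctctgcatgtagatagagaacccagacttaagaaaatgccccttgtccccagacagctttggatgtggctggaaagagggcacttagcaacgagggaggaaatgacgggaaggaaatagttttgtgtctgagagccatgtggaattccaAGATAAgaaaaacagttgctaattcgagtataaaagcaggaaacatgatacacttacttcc

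The gated cells differed among themselves. Clustering of the 101 cells, without the genes of the glucocorticoid response, immediate early, interferon, S phase and G2 and M lists, gave 5 clusters of 28, 28, 17, 16 and 12 cells, each with cells of both libraries (8 and 20, 14 and 14, 6 and 11, 10 and 6, and 4 and 8 from control and GC). The genes that set clusters apart are what the clustering used, so they are descriptions. Cluster 1 held all 8 Dcn cells. Among its 20 cells without them, Kit was detected in 19, Adgrl4 and Angpt1 in 18 each, Hlf in 17, Mecom in 13 and Procr in 12, with Hlf at 208 CPM. Kit and Adgrl4 were at least as frequent in cluster 5 and Angpt1 in cluster 2, while Mecom was detected in 6, 2, 0 and 3 cells of clusters 2 to 5 and Procr in 5, 2, 1 and 2. Since Dcn, Plpp3 and Igfbp6 led the cluster, it was left without a cell type name.

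Cluster 2 held cells that leaned to megakaryocytes and to mast cells or basophils. Itga2b, the platelet integrin chain, was detected in 26 of its 28 cells, the lipid carrier Apoe in 28 and the protease gene Cpa3 in 18, and 7 of 10 megakaryocyte markers and 7 of 9 mast cell or basophil markers were at least 2-fold higher than in the other gated cells. Counting only genes with at least 50 UMIs, these were 2 of 2 and 6 of 6, against 3.53% of all 5181 genes. A gene that is rare elsewhere reaches 50 UMIs only through the cluster in which it is high. Fcer1a had all its 130 UMIs in cluster 2, and Prss34 had 1246 there and at most 4 in any other cluster. The limit itself thus favored such counts, and little is read from them. Kit was detected in 27 of the cells, and Cdk6, a kinase of early G1, was at 922 CPM. The high affinity IgE receptor gene Fcer1a was detected in 11 cells of this cluster and in no other gated cell, which allows up to 1.94 CPM there. Prss34 and Mcpt8, basophil proteases, were at 2729.9 and 1166 CPM, but each was detected in 6 of the 28 cells.

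Cluster 3 carried genes of early lymphoid cells. Dntt was detected in 10 of 17 cells, Flt3 in 13 and the chromatin organiser Satb1 in 15, and 4 of 11 lymphoid-primed markers were at least 2-fold higher than elsewhere (4 of the 6 with at least 50 UMIs, against 1.60% of all genes). So were 4 of 10 conventional dendritic markers, Flt3 and 3 MHC class II genes. Igkc, Ighm and the MHC class II genes led it through the 3 GC cells named above, so it was left without a name. Cluster 4 was monocyte-like: all 9 monocyte markers were at least 2-fold higher than in the other gated cells (8 of the 8 with at least 50 UMIs, against 5.33% of all genes), with F13a1 in 13, Ly6c2 in 15, and Irf8 in all 16. Kit was detected in 4 of these 16 cells and Cd34 in 14, and Hlf and Mecom had no UMI, which allows up to 5.88 CPM. In clusters 3 and 4 too, the limit of 50 UMIs favored genes that are rare elsewhere. Dntt had 196 UMIs in cluster 3 and at most 16 in any other cluster. F13a1 had 235 in cluster 4 and at most 6 in any other, so little is read from the counts under this limit. In cluster 5, Kit, Cd34, Adgrl4, Mpo and the granule protease gene Ctsg were each detected in all 12 cells, with Mpo at 1224 CPM.

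**Figure D2:**
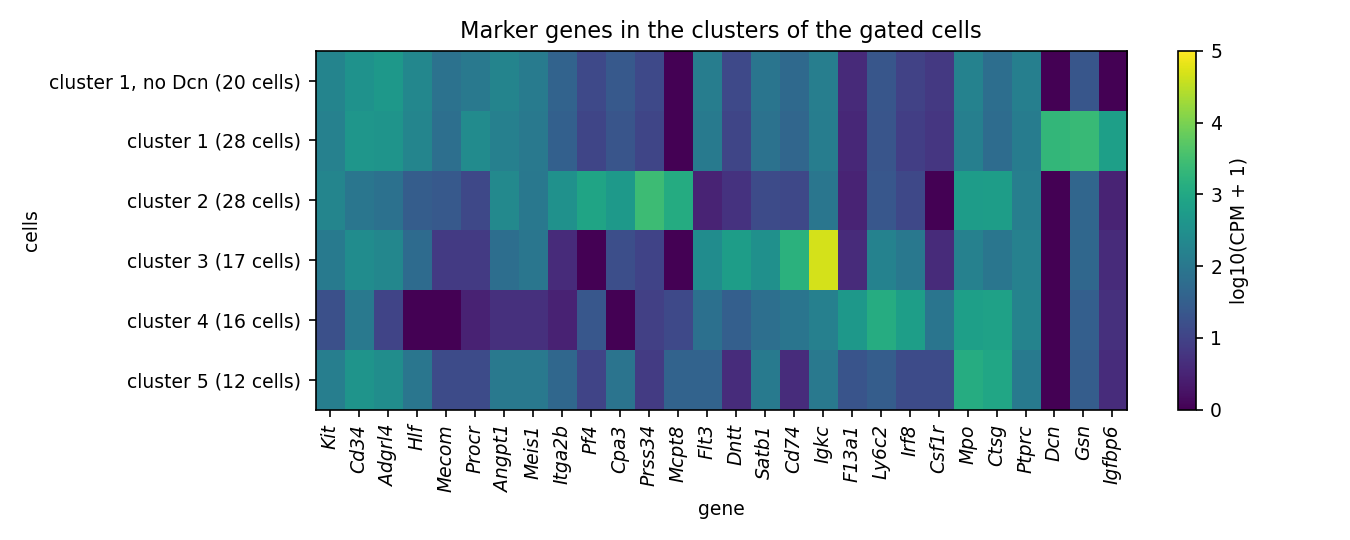
Level of 28 marker genes (columns) in the clusters of the gated cells (rows, both libraries summed), as log10 of CPM plus 1; the top row is cluster 1 without its 8 Dcn cells. Hlf stood at 208 CPM in that row and at 0 in cluster 4, which had F13a1 at 461 CPM, and Dcn is seen only in the row of the whole of cluster 1.

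Between GC and control, genes were compared on the summed UMIs of the gated cells, as the log2 ratio of CPM with 5 CPM added to both. Of 5181 genes with at least 50 UMIs, 134 (2.59%) were past 2-fold, 62 higher in GC (1.20%) and 72 lower (1.39%), and the median over all genes was -0.02. Without the Dcn cells 113 of 5028 genes were past 2-fold, 43 higher and 70 lower. Nearly all of the 12 highest genes came from few cells. Igkc, Jchain, Iglc2 and Ighm each came to at least 98.4% from 1 cell in GC. Has1, Angptl7, Cxcl13 and Prg4 belonged to Dcn cells and lay between 0 and 0.24 on the log2 scale without them. H2-Eb1 was at 4.81 CPM in control and 139 CPM in GC and H2-Aa at 15.6 and 177 CPM, where the 2 GC cells named above held 198 of 207 UMIs. Mt2 and the selenoprotein gene Gpx3 completed the 12, with log2 ratios of 4.23 and 3.31 that came to 2.24 and 1.25 without the Dcn cells.

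Among the 12 lowest in GC were genes of basophils and monocytes. Mcpt8 was at 551 CPM in control and 78.7 CPM in GC, Fcer1a at 131 and 17.97 CPM, and Prss34 at 1196 and 226 CPM. These genes also rest on few cells, since Mcpt8 was detected in 8 cells of each library and a single cell held 58.4% of the Prss34 UMIs in control and 97.0% in GC. The monocyte receptor gene Ccr2 was at 119 and 29.1 CPM, Ly86 at 72.2 and 22.2 CPM and Pld4 at 87.8 and 24.8 CPM. The other 6 were E2f2, Gfod2, Slfn2, Ifi27l2a, Ccl2 and Fam129b, with log2 ratios from -1.87 to -1.50, and E2f2 (54.1 and 11.1 CPM) had a lower ratio than Ccr2. A single control cell held 98.7% of the Gfod2 UMIs of its library and a single one 93.5% of those of Ccl2. Over all 5181 genes 2705 were lower in GC, and 1.39% were at least 2-fold lower. Of the 9 monocyte markers 8 were measured and all 8 were lower in GC, 6 past 2-fold, with a median of -1.29. The list summed to 2889 CPM in control and 1153 CPM in GC, led by Lyz2 at 1111 and 404 CPM, and no member was at 0. The monocyte-like cluster had 10 control and 6 GC cells, and with equal cluster weights in both libraries, a setting chosen after seeing the data, the median was -0.53. In summed UMIs, fewer cells of a type and less RNA of it per cell cannot be told apart. The mast cell or basophil list had 6 of 9 markers measured, all lower in GC and 4 past 2-fold, against the same 1.39%. Its median was -1.79, and -1.42 at equal weights. Tpsb2 and Cma1 were at 0 in both libraries.

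Most measured genes of the glucocorticoid response list were higher in GC. Of 15 on the list 13 were measured, 10 higher and 3 lower, with a median log2 ratio of 0.59. Over all 5181 genes 47.8% were higher. At least 2-fold higher were 2 genes of the list, against 1.20% of all genes. Much of the shift came from the Dcn cells: without them the median was 0.11, with 7 of 11 measured genes higher and 1 past 2-fold. Over all genes 47.8% were higher without these cells too. It was 0.26 with 3 UMIs of Kit and Cd34 required and 1.02 as a mean over cells. After thinning only Txnip, Mt1 and Mt2 were measured, with a median of 4.58. Fkbp5, the cochaperone that restrains the glucocorticoid receptor, did not depend on them. It was at 30.1 CPM (19.5 to 44.4) in control and 64.2 CPM (50.5 to 80.4) in GC, a ratio of 2.13 (1.34 to 3.504), and the intervals of the levels did not overlap. UMIs of Fkbp5 were seen in 16 of 42 cells in control and in 38 of 59 in GC. After thinning these were 4.76% and 15.3% of the cells, no more in GC than the 15.8% of the neutrophil-type barcodes (2.85% in control), which use the gene as well. Its log2 ratio was 0.98, and 0.96 without the Dcn cells. Within the clusters it was at 71.8 and 70.7 CPM in cluster 1, at 13.1 and 61.7 in cluster 2, at 36.9 and 77.2 in cluster 3, at 29.5 and 34.1 in cluster 4, and at 21.9 and 73.0 in cluster 5, always in the order control and GC. The control values rest on 2 to 9 UMIs per cluster. In the other cells of trabecular bone Fkbp5 was at 15.7 CPM in control and 60.4 CPM in GC.

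Tsc22d3, which encodes the leucine zipper protein GILZ, was at 115 CPM (93.5 to 141) in control and 176 CPM (153 to 202) in GC, with 116 and 156 CPM without the Dcn cells. The clusters differed: it was at 144 and 238 CPM in cluster 2 and at 62.3 and 175 CPM in cluster 4, but in cluster 1 without its Dcn cells at 185 CPM (106 to 299.9) in control and 70.5 CPM (41.8 to 111) in GC. In the other cells it was at 75.01 and 166 CPM. The metallothionein gene Mt1 was at 42.1 CPM (29.3 to 58.5) in control and 358 CPM (325 to 395) in GC, and at 40.2 and 162 CPM without the Dcn cells, which held 238 of the 454 Mt1 UMIs. A further 132 stood in 5 other GC cells with 11 to 58 UMIs each. Dusp1, a phosphatase of MAP kinases, had a log2 ratio of 0.62, and of 0.48 without the Dcn cells. Errfi1 and Cebpd, at 0.97 and 0.63 over all cells, came to -0.67 and -0.38 without them. Klf9 was at 149 and 145 CPM in the gated cells, while in the other cells it was at 38.9 CPM in control and 91.0 CPM in GC.

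**Figure D3:**
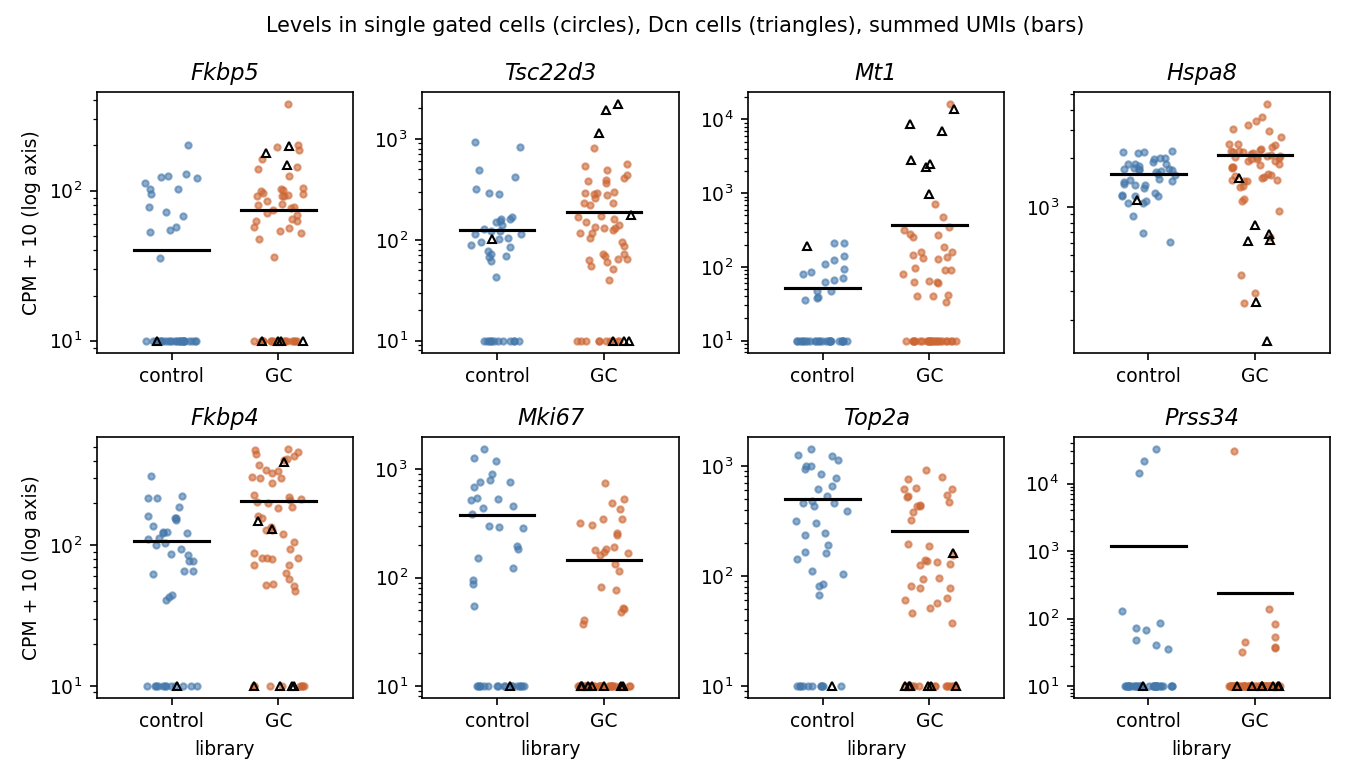
Levels of 8 genes in single gated cells of the control and GC libraries, as CPM plus 10 on a log axis; triangles are the Dcn cells and bars the summed UMIs of the library. Fkbp5 had UMIs in 16 of 42 (control) and 38 of 59 cells (GC), Mki67 in 24 and 25, and the highest Mt1 values in GC include most of the Dcn cells.

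The receptor and its folding machinery were described by a list of 9 genes, of which 8 were measured, 6 higher and 2 lower, with none past 2-fold and a median of 0.26 (0.28 without the Dcn cells). As a mean over cells the median was 0.03, with 5 higher and 3 lower. After thinning it was 0.04 over 5 measured genes, 3 higher and 2 lower. Fkbp4, the cochaperone that exchanges with Fkbp5 on the receptor, was at 97.4 CPM (77.4 to 121) in control and 195 CPM (171 to 222) in GC, a ratio of 2.00 (1.55 to 2.61). Fkbp4 was higher in GC in clusters 1, 3, 4 and 5, but in cluster 2 at 100.2 CPM in control and 96.9 CPM in GC. In the other cells Fkbp4 was at 55.0 and 61.4 CPM. Hspa8, the constitutive heat shock cognate, was at 1593 CPM (1509 to 1682) in control and 2077 CPM (1996 to 2162) in GC, and it was higher in GC in each of the 5 clusters. Hsp90aa1 was at 655 CPM in control and 919 CPM in GC, but in cluster 2 at 767 CPM in control and 696 CPM in GC. The receptor gene Nr3c1 itself was at 81.8 CPM (63.5 to 104) in control and 47.9 CPM (36.2 to 62.2) in GC, so it stood on the other side, and its ratio was 0.586 (0.404 to 0.847).

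Genes of the G2 and M phases were lower in GC. Of 50 on the list 36 were measured, 34 lower and 2 higher, and the median was -0.63, against -0.02 over all genes. Over all 5181 genes 2705 were lower. At least 2-fold lower were 7 genes of the list (5 without the Dcn cells), against 1.39% of all genes. The direction was the same without the Dcn cells (-0.61) and with equal cluster weights (-0.51). Mki67, the proliferation antigen Ki-67, was at 372 CPM (331 to 415) in control and 137 CPM (117 to 160) in GC, a ratio of 0.368 (0.302 to 0.447). Its UMIs were seen in 24 of 42 cells in control and in 25 of 59 in GC, and after thinning in 42.9% and 11.9%, against 8.24% and 5.04% of the neutrophil-type barcodes. Top2a, a topoisomerase of dividing cells, was at 485 CPM (438 to 534) in control and 246 CPM (218 to 276) in GC. Its UMIs were seen in 30 of 42 cells in control and in 35 of 59 in GC, and after thinning in 35.7% and 32.2%, against 6.56% and 4.32% of the neutrophil-type barcodes. Besides Mki67, those past 2-fold were Cenpe, Kif11, Hmmr, Nusap1, Kif23 and Ncapd2, which act on the mitotic spindle and chromosomes, with log2 ratios from -1.44 to -1.01. Cbx5 and Ctcf, the 2 that were higher, are chromatin proteins of cells in any phase.

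A median of 0.403% of a cell's UMIs was from the G2 and M list in control and 0.212% in GC, with ranges of 0.0551% to 1.89% and 0.0424% to 1.27% that overlapped over most of their length. The clusters did not hold the same levels. The monocyte-like cluster 4 had the highest medians, 1.09% in control and 0.816% in GC, and cluster 1, its Dcn cells included, the lowest, 0.179% and 0.150%. In GC, where cluster 3 had 0.157%, the last place of cluster 1 holds only with the Dcn cells. In each of the 5 clusters the median was lower in GC, but over the summed UMIs of cluster 3 the list took 0.361% in control and 0.424% in GC, and Top2a there was at 157 and 259 CPM. After thinning, 61.9% (45.6 to 76.4) of control and 54.2% (40.8 to 67.3) of GC cells had 5 or more UMIs of the list, intervals that overlapped, against 43.1% and 42.9% of the neutrophil-type barcodes. Mki67 was lower in GC in clusters 1, 2, 4 and 5, and at 101 CPM in control and 113 CPM in GC in cluster 3. The S phase list was split: 26 of 30 genes were measured, 10 higher and 16 lower (16 and 10 at equal cluster weights), with a median of -0.10 (0.05 at equal weights) and only Clspn past 2-fold (61.3 and 27.4 CPM). As a mean over cells its median was -0.29, with 7 higher and 19 lower. With 3 UMIs of Kit and Cd34 required it was -0.30, with 9 higher and 15 lower. Mcm6, a subunit of the replicative helicase, was at 160 CPM in control and 216 CPM in GC. Of 17 cell cycle regulators 14 were measured, 8 higher and 6 lower, with none past 2-fold. Cyclin D1, Ccnd1, was at 27.7 CPM (17.5 to 41.5) and 53.0 CPM (40.7 to 68.0), and the inhibitor Cdkn1a at 403 and 471 CPM.

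**Figure D4:**
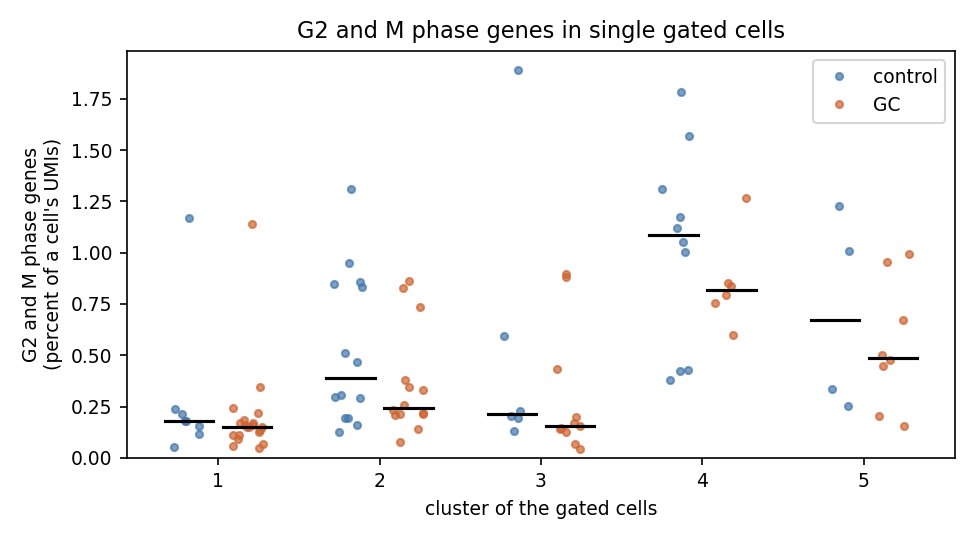
Percent of each gated cell's UMIs from the 50 genes of the G2 and M list, by cluster, with control in blue and GC in orange; bars are medians. Cluster 4 had medians of 1.09% and 0.816% and cluster 1 of 0.179% and 0.150%, and the median was lower in GC in each of the 5 clusters, with overlapping cells.

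The nearest gates showed other values. Barcodes with Kit or Cd34 that failed the granule limit and met the rest (49 control and 59 GC) had 25 of 42 measured G2 and M genes higher in GC and a median of 0.06, and those over the erythroid limit alone (9 and 11) had 26 of 32 higher and a median of 0.21. Mki67 was at 134 CPM in control and 102 CPM in GC in the former, and at 401 and 565 CPM in the latter. The glucocorticoid response list had a median of 0.21 in the granule gate, with 9 of 11 genes higher, and of 1.30 in the erythroid gate, with 7 of 7 higher. Fkbp5 was at 28.6 and 33.0 CPM in the granule gate and at 18.1 and 51.3 CPM in the erythroid gate. Whether these differences between gates exceed the spread between mice was not tested, since each rests on 1 library per condition.

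Of 25 transcription factors of stem and progenitor cells 20 were measured, 10 higher and 10 lower, with a median of -0.01. The split was 7 and 13 at equal cluster weights and as a mean over cells, with medians of -0.15 and -0.25. Ikzf2, the Ikaros family factor Helios, was the 1 past 2-fold, against 2.59% of all 5181 genes. It was at 135 CPM (111 to 162) in control and 54.8 CPM (42.2 to 69.9) in GC, a ratio of 0.407 (0.294 to 0.558). Without the Dcn cells 1 gene of the list was at least 2-fold higher in GC and 1 at least 2-fold lower. In the other cells Ikzf2 was at 5.60 and 8.55 CPM. Runx1, needed for the first blood stem cells, was at 206 and 149 CPM, and Tal1, a partner of Gata factors, at 16.8 CPM (9.20 to 28.2) and 38.5 CPM (28.1 to 51.5). Hlf was at 73.4 CPM (56.1 to 94.2) and 61.6 CPM (48.2 to 77.6), and Mecom at 22.8 and 20.5 CPM, with intervals that overlapped. Among the stem cell markers, Ly6a (the antigen Sca-1) was at 45.7 CPM in control and 147 CPM in GC and Procr (the protein C receptor) at 24.1 and 80.4 CPM. The Dcn cells held 67 of the Procr UMIs (20 in control and 94 in GC), and without these cells Procr was at 10.97 and 33.7 CPM and Ly6a at 20.7 and 59.5 CPM. The log2 ratios of Ly6a and Procr, 1.59 and 1.56, were 1.33 and 1.28 without the Dcn cells and 0.76 and 0.68 at equal cluster weights.

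Receptors and adhesion genes tie the cells to their niche. Over all genes measured, 2476 were higher and 2705 lower in GC. Of 22 cytokine and niche receptors 15 were measured, 4 higher and 11 lower, with a median of -0.17. The monocyte growth factor receptor Csf1r alone was past 2-fold, at 38.5 and 16.3 CPM, against 1.39% of all genes at least 2-fold lower. With equal cluster weights Csf1r was at -0.40 on the log2 scale. Csf2rb, the shared chain of the IL-3 and GM-CSF receptors, was at 114 CPM (92.4 to 140) in control and 66.7 CPM (52.8 to 83.3) in GC. Cxcr4, the receptor for Cxcl12, was at 183 CPM (155 to 214) and 150 CPM (128 to 174). Of 14 homing and adhesion genes 12 were measured, 4 higher and 8 lower, with none past 2-fold and a median of -0.15, which was 0.13 over the 4 genes measured in cluster 1 alone, its Dcn cells included. The integrin chain Itga4 was at 117 CPM (94.6 to 142) and 68.4 CPM (54.3 to 85.2).

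For metabolism, 14 of 15 glycolytic genes were measured, 13 higher and 1 lower in GC (12 and 2 without the Dcn cells), with none past 2-fold and a median of 0.20. Lactate dehydrogenase, Ldha, was at 327 CPM (289 to 368) in control and 478 CPM (439 to 520) in GC, and Pgam1 at 281 CPM (246 to 320) and 396 CPM (361 to 434). In the other cells Ldha was at 377 and 364 CPM. The lower one was Pfkp, at 63.7 and 41.9 CPM. Of 15 genes of fatty acid uptake and oxidation 10 were measured, 6 higher and 4 lower, with a median of 0.13. The medium-chain dehydrogenase Acadm was at 48.1 CPM (34.4 to 65.5) and 76.1 CPM (61.2 to 93.7), and the fatty acid transporter Cd36 had 3 UMIs in control and 1 in GC.

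**Figure D5:**
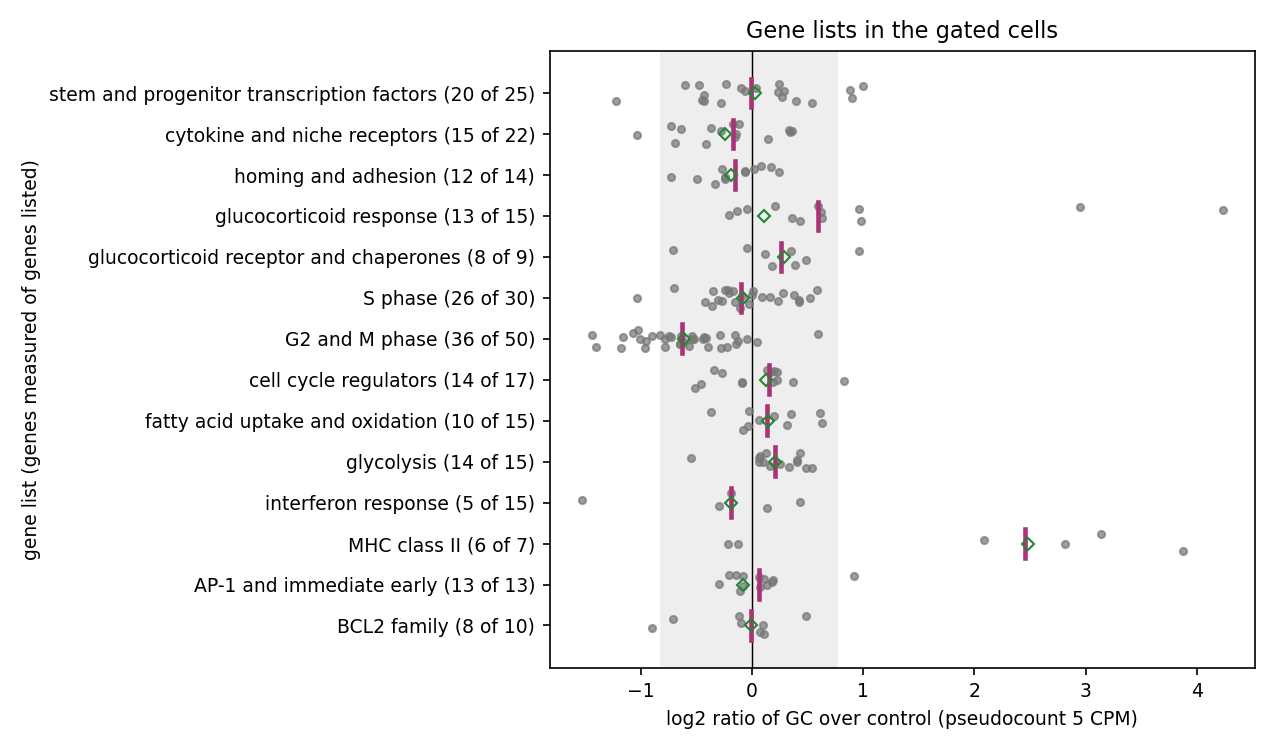
Log2 ratio of GC over control for each measured gene (gray points) of 14 lists in the gated cells, 5 CPM added to both; purple bars are list medians, green diamonds the medians without Dcn cells, and the gray band holds the middle 95% of all 5181 genes. The G2 and M median was -0.63, and the glucocorticoid response median was 0.59 with and 0.11 without the Dcn cells.

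Among the remaining functional lists, MHC class II genes had 4 of 6 measured members past 2-fold higher in GC, against 1.20% of all 5181 genes. This count and the median of 2.45 came through the 2 GC cells above. H2-DMa, detected in 27 control and 44 GC cells, was at 146 and 125 CPM. Of 15 interferon response genes 5 were measured, 2 higher and 3 lower, with Ifi27l2a at least 2-fold lower, against 1.39% of all genes. Immediate early genes, which tissue digestion is known to raise, had 7 of 13 higher and a median of 0.06 (4 of 13 and -0.08 without the Dcn cells, 2 of 13 and -0.18 at equal cluster weights), with Fos at 439 and 459 CPM and Jun at 406 and 384 CPM. Their most abundant member was Jund, at 1853 and 1751 CPM. Klf2, a factor of quiescent lymphocytes, was at 283 CPM (248 to 321) and 538 CPM (497 to 582), with 411 and 620 CPM in the other cells. BCL2 family genes were split, 4 higher and 4 lower, with the pro-death gene Bbc3 (PUMA) at 98.6 CPM (78.4 to 122) and 50.5 CPM (38.4 to 65.1) and Bcl2 at 49.3 and 71.0 CPM.

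Markers of other lineages were summed over the gated cells as a measure of what else the gate held, and their part in the results above was not tested. The lymphoid-primed list stood at 893 CPM in control and 904 CPM in GC, led by Mef2c, with 4 of 6 measured genes higher in GC and Rag2 at 0 in both. The megakaryocyte list stood at 423 and 276 CPM, led by Pf4, of which 1 control cell held 86.5%, with Tubb1 at 0 in both. The plasmacytoid dendritic list stood at 759 and 497 CPM, with all 5 measured genes lower in GC, 2 of them past 2-fold (Irf8 and Cox6a2). Over all 5181 genes 2705 were lower in GC, and 1.39% were at least 2-fold lower. Irf8 also serves monocytes and is counted in that list too. The conventional dendritic list stood at 152 and 568 CPM, led in GC by H2-Aa in the 2 cells above, with Xcr1 at 0 in both. B lineage genes stood at 216 and 87.3 CPM, led by Ebf1, with Vpreb2 at 0 in both. Without the Dcn cells, which all carried Ebf1, the list stood at 209.6 and 48.8 CPM. Of the 65 Ebf1 UMIs outside the Dcn cells, 1 cell held 49, so no ratio is read from this gene. T, NK and innate lymphoid genes stood at 291 and 264 CPM, led by Nkg7, with Cd3g at 0 in both. Stromal genes stood at 214 and 650.2 CPM, led by Dcn, and at 30.5 and 30.2 CPM without the Dcn cells. Endothelial genes stood at 214 and 256 CPM, led by Egfl7, a gene that stem cells also use. Eosinophil genes, at 12.025 and 13.7 CPM with Epx and Ear6 at 0, were close to absent. Erythroid genes, led by Hba-a1, stood at 534 and 582 CPM, against 14244 and 24183 CPM in the other cells.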

How the data were processed

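Per the labels, libraries were made with a 10x Genomics kit v2, although the trabecular matrices each list 6794880 barcodes. The authors made the deposited counts, whole numbers of UMIs per gene and barcode without normalization, with Cell Ranger; the matrix headers name version 4 and the submitters' processing notes 5.0.1, with Seurat 3.2.0 and mm10. Both trabecular libraries entered the comparisons.

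Barcodes were gated in Python 3.11.15 with scipy 1.17.1 and scikit-learn 1.9.0 on numpy 2.4.6. The members and gene lists were chosen with earlier results of these data known. A doublet score marked 0 control and 2 GC gated cells, which were kept. Free RNA, from barcodes of at most 100 UMIs, was estimated at 1.10% and 1.89% of gated UMIs. Clusters used 2000 variable genes, 15 components, 10 neighbors and Leiden resolution 1 (leidenalg 0.10.2). Levels are CPM over summed UMIs with exact Poisson intervals, shares have Clopper-Pearson intervals and ratios exact conditional intervals. Named were all genes of 29 lists, the 12 highest and 12 lowest ratios among genes of at least 50 CPM in 1 library, and the 15 genes furthest above the other cells. Dcn cells, and the other settings without them, were chosen after seeing the data.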

Additional observations from a re-analysis of the deposited data

How the results depend on the processing

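No paired analysis was possible because the labels give no replicate numbers and each condition has 1 library; leaving out a replicate was not possible either. The share of gated cells was 4.41% in control and 5.91% in GC when barcodes rich in hemoglobin or S100a8 and S100a9 left the denominator. With 3 UMIs of Kit and Cd34 required it was 0.805% in control and 0.898% in GC. After thinning to 2000 UMIs it was 0.409% and 0.248%, and the log2 ratio of the shares was -0.72 instead of 0.22. The count of genes past 2-fold (62 higher, 72 lower, 134 in all) came to 37, 33 and 70 with 20 CPM added, 154, 173 and 327 with a minimum of 20 UMIs, 300, 268 and 568 with no minimum, and 19, 14 and 33 after thinning. A mean over cells gave 107 higher, 95 lower and 202 in all. Cluster 1 alone, which ties with cluster 2 as the largest and holds the 8 Dcn cells, gave 73 higher, 45 lower and 118 in all of 1160 genes. In both, more genes were higher than lower. The same order held with 20 CPM added, with no minimum and after thinning. It also held when centred on the median gene (67 higher, 66 lower) and without the top cell of each gene (80 and 66). Genes above the other cells numbered 457 with 20 CPM added and 97 without the barcodes rich in hemoglobin or S100a8 and S100a9. There were 3 clusters at resolution 0.5, 9 at resolution 2 and 3 in control alone. For the 50 named genes past 2-fold, 632 of 707 alternative values were past 2-fold in the same direction, 69 were under 2-fold in the same direction and 6 had the other direction. The 6 were Ccl2 at 1.48 with a mean over cells and 0.18 without its top cell, Gfod2 at 0.93 and Ighm at -0.76 without the top cell, and Pf4 at 1.75 with 3 UMIs of Kit and Cd34 required and 0.69 without its top cell. In each of these 4 genes 1 cell holds most UMIs of a library.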
